A study of Mus musculus with 28 samples.

Results

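The 10 genes described here are the cytoplasmic actins Actb and Actg1 and 8 regulators of actin filaments: Cfl1, Dstn, Pfn1, Pfn2, Tmsb4x, Tmsb10, Arpc2 and Capzb. They were taken as a list of names by a rule that uses no measured value, though with earlier results of these data known, and all 10 are among the 23995 genes in the files. Axon-TRAP, the immunoprecipitation of HA-tagged ribosomes from axon terminals, was sequenced from the superior colliculus (SC), the midbrain target of retinal ganglion cell (RGC) axons. The mice were C57BL/6 and came from RiboTag knockin females, whose Rpl22 gene gains an HA tag after Cre recombination, mated with Pax6-alpha-Cre males. Every animal, controls included, therefore carried the RiboTag allele. SC came from Cre-positive animals and from their Cre-negative littermates, whose SC gives the background of the immunoprecipitation, and retina (no Cre status in its labels) formed a further source. Each of these sources was taken at embryonic stage E17.5, at postnatal stages P0.5 and P7.5, and from adults of unstated age, with 2 libraries a group and 24 in all. In addition, 4 adult libraries, 1 of each tissue with ribosome run-off and 1 without, from Cre-positive SC and from retina, were counted in reads. Cre is transient and acts in progenitors of the peripheral retina, so only part of the retina is tagged and tagged cells include types other than RGCs. SCs and whole eyes of several animals were pooled for each library, and the labels do not say whether replicates came from separate litters, so p-values measure the spread between these pooled libraries.

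Actin is the main structural protein of the growth cone, the motile tip of an elongating axon, and of presynaptic terminals. Filaments grow when profilin delivers monomers to their fast-growing ends, branch through the Arp2/3 complex, stop growing when capping protein closes those ends, and are severed by cofilin and its relative destrin. The β-thymosins hold monomers in reserve. The mRNA of β-actin is a textbook case of an mRNA carried into axons and translated there, through an element of its 3′UTR, the zipcode, that is bound by the RNA-binding protein ZBP1 (Igf2bp1).

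Actb (ENSMUSG00000029580) lies on the minus strand of chromosome 5, from 142903115 to 142906754 of mm10 (GRCm38), and Actg1 (ENSMUSG00000062825) on the minus strand of chromosome 11, from 120345690 to 120348542. They encode nearly the same protein from separate genes. Their coding sequences were identical at 1000 of 1128 aligned bases (88.7%), with a longest identical run of 62 bases, whereas their 3′UTRs were 54.0% identical with a longest identical run of 11 bases. The first 30 coding bases, where the protein sequences of the isoforms differ most, are shown because reads there tell the mRNAs apart. They lie in coding exons at chr5:142905657-142905686 and chr11:120348062-120348091 (both minus strand), and the capitals mark the 8 positions at which the genes differ.
Actb: atggaTgaCgaTatcgcTgcGctGgtcGtC
Actg1: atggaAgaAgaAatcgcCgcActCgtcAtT
The second set shows the feature for which Actb is known in axons. In the 3′UTR of Actb, the letters GGACT were followed by ACACCC, the pair of short sequences within the zipcode, starting at base 3 after the stop codon (chr5:142903767-142903795, minus strand, with both motifs in capitals).
Actb 3′UTR: GGACTgttactgagctgcgttttACACCC
A search of the sense strand for GGACT followed after 5 to 25 bases by ACACCC, within the first 150 bases of the 3′UTR, found the pair in 20 of 17135 genes (0.117%). Actb was the only 1 of the 10 genes with the pair, and its paralogue Actg1 had none in that window. A match describes letters and is not evidence of binding.

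The 8 regulators come from 5 families. Cofilin 1 (Cfl1, ENSMUSG00000056201, chromosome 19, 5490455 to 5495201, plus strand) and destrin (Dstn, ENSMUSG00000015932, chromosome 2, 143915320 to 143943324, plus strand) are paralogues with 68.5% identical coding bases. Profilin 1 (Pfn1, ENSMUSG00000018293, chromosome 11, 70651850 to 70654644, minus strand) and the mainly neuronal profilin 2 (Pfn2, ENSMUSG00000027805, chromosome 3, 57841895 to 57848079, minus strand) share 61.5%. Thymosin β4 (Tmsb4x, ENSMUSG00000049775, chromosome X, 167207093 to 167209315, minus strand) and thymosin β10 (Tmsb10, ENSMUSG00000079523, chromosome 6, 72957347 to 72958748, minus strand) share 70.4%. Arpc2 (ENSMUSG00000006304, chromosome 1, 74236084 to 74268209, plus strand) is a subunit of the Arp2/3 complex, and Capzb (ENSMUSG00000028745, chromosome 4, 139192899 to 139291818, plus strand) is the β subunit of capping protein. Cfl1 overlaps Snx32 on the opposite strand, and reads from these genes could not be told apart if the counting did not use strand. Reads of processed pseudogenes, which actins, cofilin, profilin and thymosins have in number, may likewise have been split.

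The libraries differed widely. The deepest SC library held an estimated 13865000 fragments and the shallowest 276000 (an E17.5 Cre-negative SC library), and the retina libraries 5083000 to 10450000. The files give no depth, so these are estimates from the smallest values of genes with a single transcript. For the 10 genes, 3 fragments correspond to between 0.0919 and 15.8 FPKM (fragment numbers scaled to transcript length and to library size), depending on the gene and library, and lower values cannot be told from 0. Replicates of P0.5 agreed far better than those of other stages: among genes reaching 1 FPKM in at least 1 of the P0.5 Cre-positive SC libraries, 87.3% reached it in both, and 84.0% in Cre-negative SC, compared with 18.4 to 40.4% in the SC groups of the other stages. In retina this share was 70.5% at P0.5 and 23.0 to 33.8% at the other stages. Each of 10 RGC marker genes was above 0 in at least 1 retina library of E17.5 and of P0.5, while 1 (P7.5) and 3 (adult) of them were at 0 in both. In successive stages, 2, 3, 5 and 7 of the 10 were at 0 in both Cre-positive SC libraries and 4, 5, 4 and 7 in both Cre-negative ones. Retina libraries also held photoreceptor markers (summed FPKM 447 to 2529 at P7.5 and Adult) and lens markers (3.17 to 861 over all stages). Eyes were homogenized for these libraries, but the source of the lens markers was not tested. In adult Cre-negative SC the lens markers summed to 1.33 to 202 FPKM. In bulk samples such as these, fewer cells of a type and less RNA per cell cannot be told apart.

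Actb was the most abundant of the 10 mRNAs in each of the 18 libraries that list it above 0. In Cre-positive SC it had 31182 FPKM at E17.5, then 39760 at P0.5, then 35812 and 5114 at P7.5, and finally 7793 and 5684 in the adult. In Cre-negative SC it had 110683 and 23991 FPKM at E17.5, then 41974 at P0.5, then 15373 and 7568 at P7.5, and finally 20097 and 10587 in the adult. Actb was thus abundant in the background immunoprecipitate of untagged SC too, and the groups overlapped at P7.5, the only stage besides the adult with a value in all 4 SC libraries. In the adult both Cre-positive libraries were below both Cre-negative libraries. Cufflinks marked the locus in 3 further libraries (1 of E17.5 Cre-positive SC, 1 of P0.5 Cre-positive SC and 1 of P0.5 Cre-negative SC) as holding too many fragments to estimate, so Actb was abundant there without a number. The fit across all genes left these values out, and the means of Actb in Cre-positive SC at E17.5 and in both SC groups at P0.5 rest on 1 library each. As the entries left out were those too abundant to estimate, these means may be too low. Differences of Actb and stage steps that use them may be shifted, by an amount that was not estimated.

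In retina Actb was listed at 0 in 1 library of E17.5, P0.5 and P7.5 each, while the other library of the stage had 23616, 15371 and 38178 FPKM. The adult retina libraries had 33277 and 47561 FPKM. The 3 libraries at 0 were not empty of common mRNAs: Eef1a1, a translation elongation factor, had between 3.32 and 412 FPKM in them. Gapdh, an mRNA that every cell uses, did not exceed 0.664 FPKM in any of the 24 libraries and was at 0 in 18 of them. Low Gapdh was not confined to FPKM. Counts of the adult run-off assay gave it 12 reads in the Cre-positive SC run-off library and 0 in each other library of that assay. Eef1a1 counts in the same libraries ranged from 43 to 864. Whether a value of exactly 0 is a failed estimate or an absent mRNA was not tested, for Actb or for other genes. Such genes are called listed at 0. Actb had the highest FPKM of all genes in 9 of the 18 libraries in which it was above 0.

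The paralogue Actg1 was lower by orders of magnitude. Over the 16 libraries with both genes above 0, the ratio of Actb to Actg1, both per kilobase, had a median of 1986 and a range from 135 to 598599. The highest ratio came from an adult retina library with 0.0556 FPKM of Actg1, where 3 fragments correspond to 0.302 FPKM. That Actg1 value cannot be told from 0, and the next highest ratio was 20400. Cre-positive SC had 47.1 and 12.5 FPKM of Actg1 at E17.5, then 295 and 94.7 at P0.5, then 0 and 3.44 at P7.5, and finally 2.97 and 0 in the adult. Cre-negative SC had 21.4 and 23.0, then 103 and 35.0, then 0.754 and 42.0, and then 15.7 and 3.92 FPKM at the same stages. In retina the values were 0.544 and 23.2, then 11.5 and 2.59, then 0 and 13.5, and then 0.0556 and 18.6 FPKM. Actg1 was highest at P0.5 in SC with and without Cre. The SC groups overlapped at each stage but the adult, where both Cre-positive libraries were below both Cre-negative ones.

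Among the regulators, Cfl1 was the most evenly detected, above 0 in 23 of 24 libraries. Retina libraries lay between 26.4 and 123 FPKM. The E17.5 SC libraries split by library number and not by Cre: 719 and 3.10 FPKM with Cre, and 1368 and 4.17 without. At P0.5 both Cre-positive libraries (121 and 233 FPKM) were above both Cre-negative libraries (3.38 and 66.4). At P7.5 Cre-positive SC had 24.7 and 33.3 FPKM and Cre-negative SC 97.7 and 4.06, and in the adult these were 31.9 and 22.4 against 54.0 and 0.

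Dstn, the other severing factor, was listed at 0 in all 4 P0.5 SC libraries and had 21.3 and 6.28 FPKM in P0.5 retina. Retina had 18.2 and 114 FPKM at E17.5, then 0.148 and 41.7 at P7.5, and finally 0 and 55.2 in the adult. In Cre-positive SC it was above 5 FPKM in 2 libraries, 1 of E17.5 (5.94) and 1 of P7.5 (63.0).

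In SC, Pfn1 exceeded 3 FPKM in both P0.5 groups and in E17.5 Cre-negative SC, and in no other SC library with FPKM. Cre-positive SC had 0 and 1.70 FPKM at E17.5, then 92.5 and 60.0 at P0.5, then 0 in both libraries at P7.5, and finally 1.88 and 0 in the adult. Without Cre the values were 52.7 and 4.08, then 198 and 57.3, then 0 in both, and then 2.64 and 0.664 FPKM. Retina stayed between 0 and 22.4 FPKM, with 5.65 and 6.68 at P0.5.

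Its paralogue Pfn2 had another pattern at P0.5, with 38.4 and 11.8 FPKM in Cre-positive SC and 0 in both Cre-negative libraries. At E17.5 it had 53.5 and 0.0839 FPKM with Cre and 13.7 and 0 without. At later stages no SC library with FPKM reached 1, but the adult Cre-positive SC library without run-off, counted in reads, held 151 reads of Pfn2. Retina had at most 6.33 FPKM.

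The thymosins were present at E17.5 and P0.5 in SC and at or near 0 in Cre-positive SC from P7.5 on. Tmsb4x in Cre-positive SC had 130.4 and 17.7 FPKM at E17.5, then 104 and 95.4 at P0.5, then 0 in both at P7.5, and finally 0 and 1.48 in the adult. The Cre-negative libraries had 768 and 15.99, then 391 and 105, then 21.0 and 0, and then 11.3 and 6.65 FPKM. Tmsb10 in Cre-positive SC had 1374 and 8.66 FPKM at E17.5, 111 and 140.4 at P0.5, and 0 in all 4 later libraries. Cre-negative SC had 643 and 14.6, then 29.0 and 28.1, then 1.97 and 1.01, and then 4.82 and 0 FPKM. At P0.5 the Cre-positive libraries were thus above the Cre-negative ones for Tmsb10. For Tmsb4x they were below, but the nearest libraries were almost tied, at 104.5 with Cre and 104.7 FPKM without.

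Arpc2 and Capzb belong to the branching and the capping machinery. Arpc2 was above 1 FPKM in 3 of the 16 SC libraries, 52.1 in an E17.5 Cre-positive, 38.1 in an E17.5 Cre-negative and 129 in an adult Cre-negative library, and it was listed at 0 in all 8 SC libraries of P0.5 and P7.5. In retina it did not exceed 5.44 FPKM. Capzb was nearly absent from E17.5 Cre-positive SC (0.177 and 0.0528 FPKM), reached 168 and 74.5 FPKM at P0.5, and returned to 0.237 and 2.09 FPKM by P7.5 and 0 in both adult libraries. Cre-negative SC had 3.96 and 13.8, then 101 and 27.5, then 0.295 and 0, and then 0 and 0.614 FPKM. In retina Capzb had 1.82 and 0.619 FPKM at P0.5 and up to 33.0 in an adult library.

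**Figure D1:**
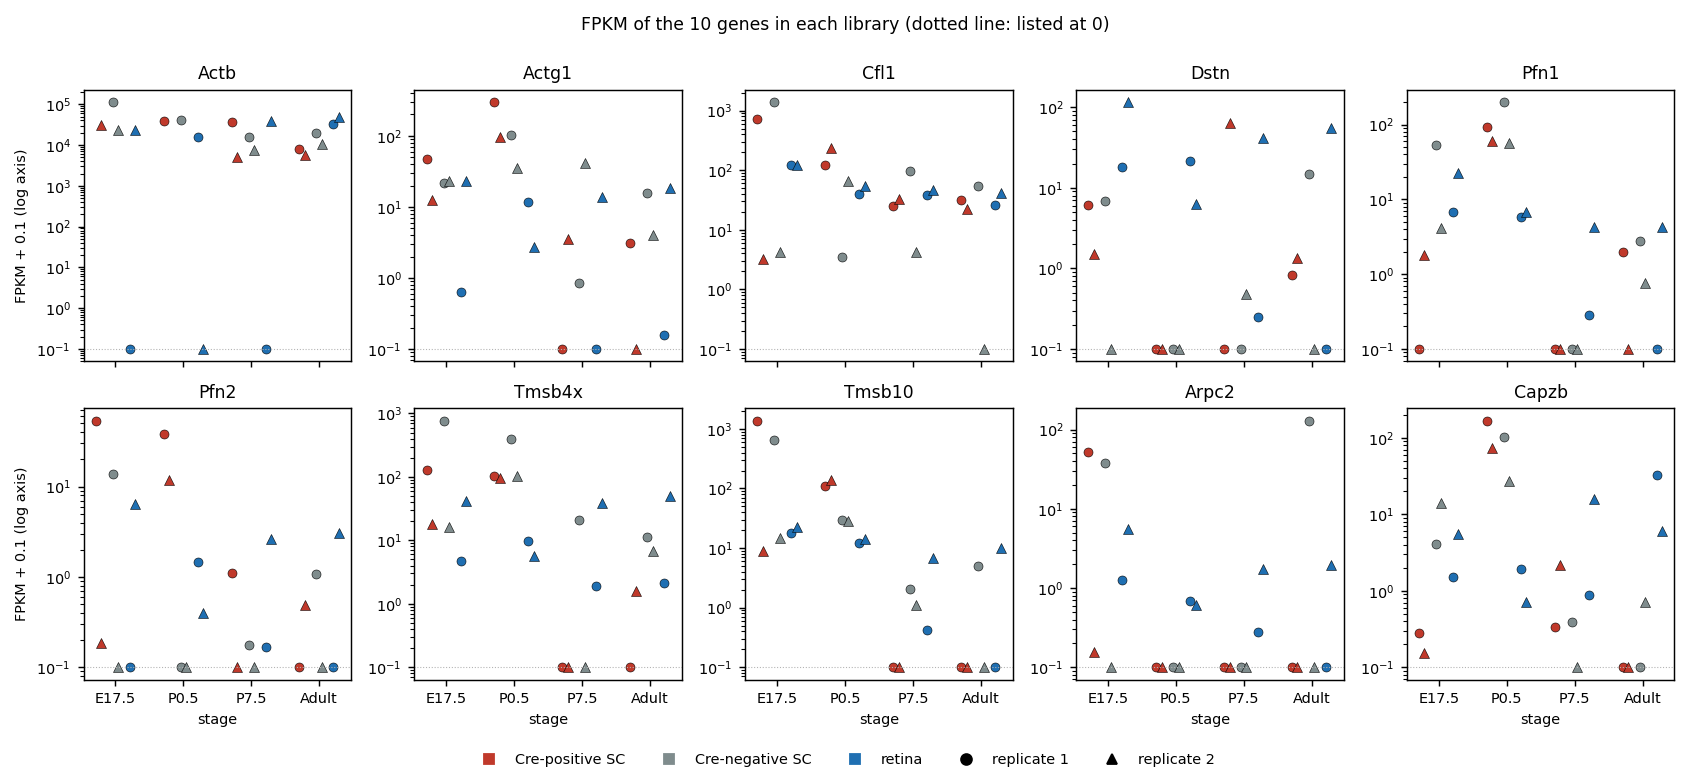
Points are single libraries (circle replicate 1, triangle replicate 2) of retina, Cre-positive SC and Cre-negative SC at each stage, on a log axis of FPKM plus 0.1, where the dotted line marks a listed 0 and the 3 libraries without a value of Actb have no point. Actb lies at 5114 FPKM or more wherever it has a value above 0, and Pfn1 and Capzb in SC are highest at P0.5 with and without Cre.

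By median over the 8 Cre-positive SC libraries, the order of FPKM was Actb (19488, 6 libraries with a value), Cfl1 (32.6), Tmsb4x (9.58), Actg1 (7.99), Tmsb10 (4.33), Dstn (1.002), Pfn1 (0.850), Pfn2 (0.694), Capzb (0.207) and Arpc2 (0). The retina order was Actb (19494), Cfl1 (44.2), Dstn (19.7), Tmsb10 (11.0), Tmsb4x (7.58), Actg1 (7.04), Pfn1 (4.93), Capzb (3.62), Arpc2 (0.881) and Pfn2 (0.832). In Cre-positive SC only Actb was separate, as the ranges of all other neighbours in the order overlapped. In retina even the range of Actb overlapped the others because of the 3 libraries listed at 0. Dstn ranked higher in retina than in Cre-positive SC. These medians pool 4 stages, so a gene near 0 at several of them ranks low whatever its peak. At P0.5 alone the order of mean FPKM in Cre-positive SC was Actb (1 library with a value), Actg1 (194.9), Cfl1 (177), Tmsb10 (125.6), Capzb (121), Tmsb4x (99.9), Pfn1 (76.3) and Pfn2 (25.1), with Dstn and Arpc2 listed at 0. The libraries of neighbours from Actg1 to Tmsb4x overlapped in this order.

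Setting SC with Cre against SC without Cre asks which mRNAs the tagged axonal ribosomes carry beyond background. None of the 10 genes passed limma at any stage, including P0.5, where 32.5% of the genes tested passed, 28.2% higher and 4.34% lower with Cre. The median difference was 0.53 log2 units over the 10 genes and 0.78 over all genes tested. The closest at P0.5 was Pfn2, 4.49 log2 units higher (SE 1.68, adjusted p = 0.0662 with limma), and it was the 1 gene with an unadjusted p under 0.05. The 95% intervals at P0.5 were wide, from -3.60 to 3.44 for Actb, -3.25 to 2.23 for Pfn1, -2.10 to 5.03 for Actg1 and -3.59 to 10.18 for Cfl1, so each held differences of over 2 log2 units in either direction. These differences are on the scale of log2(FPKM + 1), which understates changes of low values. With only the 4 P0.5 libraries in the fit, Pfn2 and Tmsb10 were called higher. Of the 9 genes with all values at P0.5, 3 had both Cre-positive libraries above both Cre-negative ones (Cfl1, Pfn2 and Tmsb10) and 1 had them below (Tmsb4x), beside 67.5% above and 14.2% below among all genes that reach 1 FPKM in 2 of these 4 libraries. The separation of Tmsb4x was almost a tie, 104.5 against 104.7 FPKM in the nearest libraries.

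At E17.5 none of the 10 passed (0.468% of genes higher and 1.1% lower in all), and 2 had an unadjusted p under 0.05, both lower with Cre. These were Pfn1, by -3.33 (SE 1.24, adjusted p = 0.512 with limma), and Capzb, by -2.95 (SE 0.98, adjusted p = 0.355). At P7.5 and Adult none passed and none had an unadjusted p under 0.05, where 0.0% of all genes passed at P7.5, and 0.15% in the adult (0.0835% higher, 0.0668% lower). For Actb the difference was 0.33 log2 units at P7.5 (95% interval -2.16 to 2.82) and -1.13 in the adult (-3.62 to 1.36). Over all stages together none of the 10 passed or had an unadjusted p under 0.05, beside 10.1% of genes higher and 2.24% lower. Pfn1 was called at E17.5 without the second E17.5 Cre-negative library, and Pfn2 was called over all stages without the second E17.5 Cre-positive library.

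**Figure D2:**
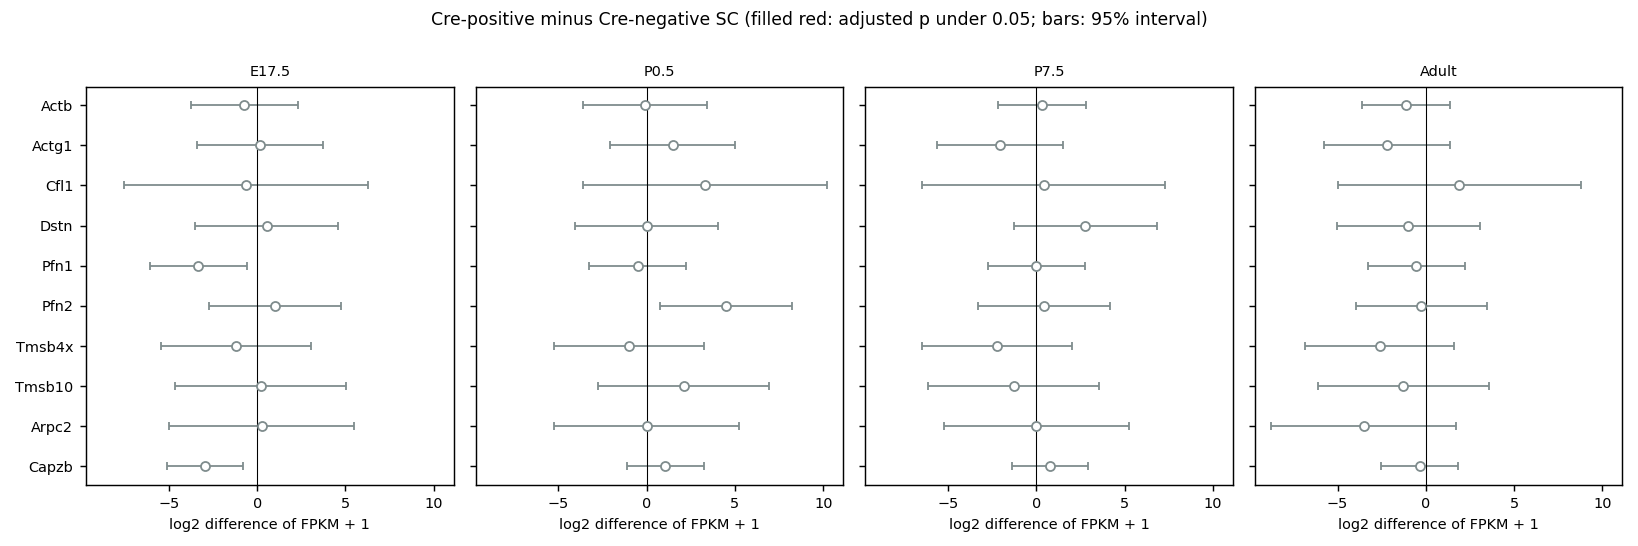
Each point is the log2 difference of FPKM + 1 between Cre-positive and Cre-negative SC at 1 stage with its 95% interval from limma, and filled red would mark an adjusted p under 0.05. No point is filled, and Pfn2 at P0.5 (4.49) is the farthest from 0.

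Within Cre-positive SC, several of the genes changed between stages. From E17.5 to P0.5, 2 of the 10 genes rose, Capzb by 6.66 log2 units (SE 0.98, adjusted p = 3.71e-04 with limma) and Pfn1 by 5.52 (SE 1.24, adjusted p = 0.00619), while 25.1% of all genes rose and 1.8% fell. The median change was 1.29 over the 10 genes and 0.69 over all genes. From P0.5 to P7.5, 5 of the 10 fell, beside 29.8% of all genes called, 29.3% falling and 0.501% rising, with a median of -4.92 over the 10 genes and -1.20 over all. They were Tmsb10 (-6.97, SE 2.19, adjusted p = 0.0343), Tmsb4x (-6.66, adjusted p = 0.0230), Actg1 (-6.32, adjusted p = 0.0124), Pfn1 (-6.24, adjusted p = 0.00279) and Capzb (-5.85, adjusted p = 8.92e-04). The sizes for genes listed at 0 at P7.5 depend on the pseudocount. Actb did not pass in either step (0.35, 95% interval -3.17 to 3.87, and -1.55, interval -4.60 to 1.49). From P7.5 to Adult none of the 10 passed and none had an unadjusted p under 0.05 (0.0835% of all genes passed).

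These rises and falls were not shown to be particular to tagged ribosomes. The interaction of stage with Cre was passed by none of the 10 genes between E17.5 and P0.5 (23.8% of genes higher, 3.22% lower), with Capzb nearest at 4.01 (SE 1.39, adjusted p = 0.0551 with limma) and the only one with an unadjusted p under 0.05. Between P0.5 and P7.5 again none passed and none had an unadjusted p under 0.05 (2.74% higher, 18.7% lower). Between P7.5 and Adult the count was 0 by either threshold, as 0.0% of all genes passed. In the first of these interactions, Pfn2 was called without the first E17.5 Cre-positive library, Pfn1 without the second E17.5 Cre-negative library, and Capzb without the first E17.5 or the first P0.5 Cre-negative library. Of 4 other abundant mRNAs, picked after their values were seen, 2 fell in Cre-positive SC between P0.5 and P7.5. These were Rplp0, a ribosomal protein mRNA (-8.66 log2 units, adjusted p = 0.0119 with limma) and Tuba1a, a tubulin (-7.12, adjusted p = 0.0230). Eef1a1 (-2.87, adjusted p = 0.467) and Hsp90ab1, a chaperone (-5.62, adjusted p = 0.144), did not pass. What moved these mRNAs and its part in the members' change was not tested.

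The stage calls rest on few libraries. Without the first P0.5 Cre-positive library no gene was called in either step. Without the second P0.5 Cre-positive library, Capzb alone was called between E17.5 and P0.5, and Pfn1 and Capzb between P0.5 and P7.5. Without the first P7.5 Cre-positive library Dstn (as a rise), Pfn1 and Capzb were called, and without the second Actg1, Pfn1 and Capzb. Without the first E17.5 Cre-positive library Pfn2 joined Pfn1 and Capzb in the rise to P0.5.

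**Figure D3:**
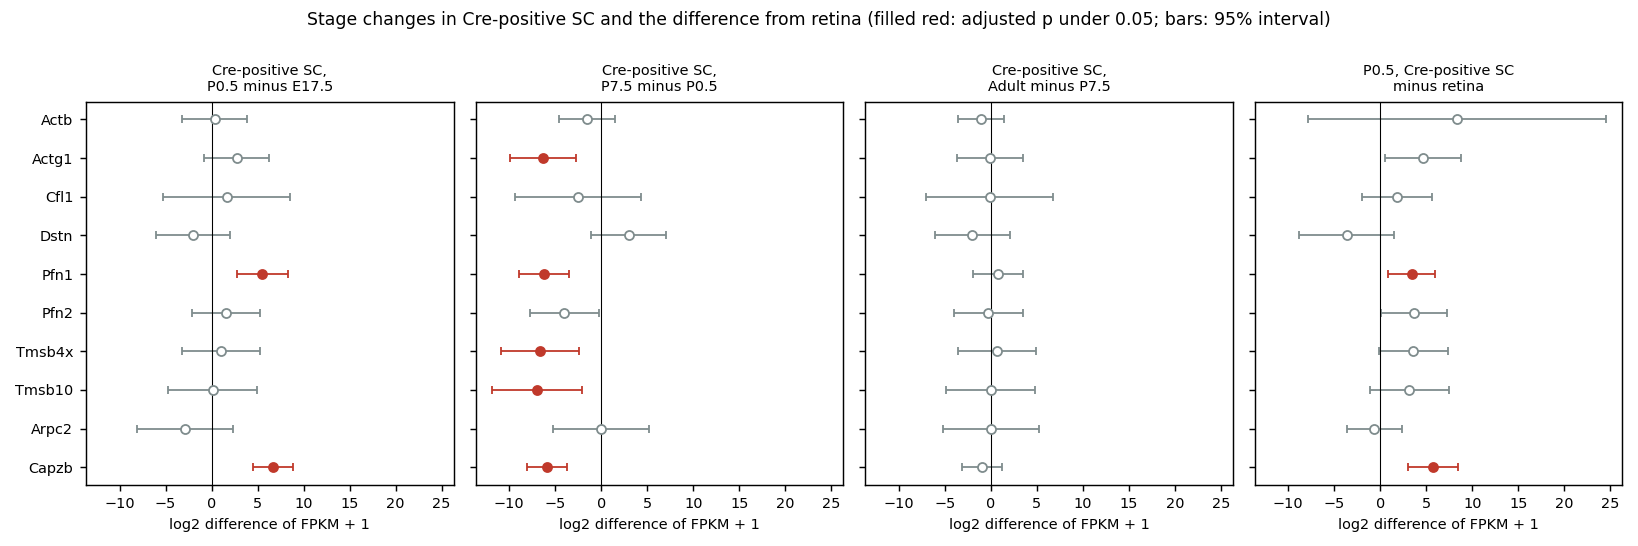
Points are log2 differences of FPKM + 1 with 95% intervals from limma for successive stages within Cre-positive SC and, at the right, for Cre-positive SC minus retina at P0.5, and red marks an adjusted p under 0.05. Pfn1 and Capzb rise by 5.52 and 6.66 to P0.5, 5 genes fall to P7.5, and the interval of Actb against retina spans from -7.84 to 24.49, in a fit that holds 3 retina values of Actb listed at 0.

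The comparison of Cre-positive SC with retina sets axons against a source that holds the cell bodies. At P0.5, 2 of the 10 genes were higher in Cre-positive SC, Capzb by 5.72 log2 units (SE 1.24, adjusted p = 0.00354 with limma) and Pfn1 by 3.40 (SE 1.16, adjusted p = 0.0404), beside 34.7% of all genes called, 32.7% higher and 2.01% lower. SC libraries had more rounds of amplification than retina libraries, and this and the source cannot be told apart. Without the first P0.5 Cre-positive library neither was called, and without any other library of that comparison only Capzb was. Of the 9 genes with all values, 7 were higher in both SC libraries than in both retina libraries and 2 (Dstn and Arpc2) were lower, close to the shares among all genes that reach 1 FPKM in 2 of these libraries (78.3% higher and 13.6% lower). At P0.5 both Cre-negative SC libraries also lay above both retina libraries for Pfn1, Capzb, Actg1, Tmsb4x and Tmsb10. They lay below them for Pfn2, Dstn and Arpc2 and overlapped them for Cfl1. The share over all genes was not computed for Cre-negative SC against retina, so this is not read as a trait of the members.

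At E17.5, P7.5 and Adult none of the 10 passed against retina, with 1, 0 and 1 genes at an unadjusted p under 0.05. Of all genes, 1.33% passed at E17.5 (0.585% higher, 0.743% lower), 0.0158% at P7.5 (all higher) and 0.142% in the adult (0.111% higher, 0.0316% lower). The 2 genes were Pfn1 at E17.5 (-3.02, SE 1.16, adjusted p = 0.335 with limma) and Capzb in the adult (-3.94, SE 1.24, adjusted p = 0.334), both below retina. Among E17.5 libraries, Cfl1 was called without the first Cre-positive library, and Tmsb10 and Arpc2 were called without the second. Over all stages none of the 10 passed or had an unadjusted p under 0.05, beside 10.6% of genes higher and 4.11% lower. With its 3 retina values of 0 taken as missing, an alternative chosen after the values were seen, Actb differed from retina by 0.40, 1.37, -1.50 and -2.58 log2 units at the successive stages. None of these passed (adjusted p between 0.533 and 0.999 with limma), although the adult interval, -4.77 to -0.39, lay below 0.

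The change from E17.5 to P0.5 differed between Cre-positive SC and retina for 2 of the 10 genes, Capzb by 7.55 (SE 1.75, adjusted p = 0.00801 with limma) and Pfn1 by 6.42 (SE 1.65, adjusted p = 0.0131), beside 23.8% of all genes higher and 0.806% lower. From P0.5 to P7.5 the change differed for Capzb alone, by -7.20 (SE 1.75, adjusted p = 0.0112), beside 22.5% of genes lower and 0.364% higher, and Tmsb4x (-6.99, adjusted p = 0.0574) and Pfn1 (-4.71, adjusted p = 0.0605) came close. None of the 10 passed in the last step (0.0474% of all genes) or had an unadjusted p under 0.05. Without the first P0.5 Cre-positive library neither gene was called in these interactions, and without the second P0.5 retina library Capzb lost the second one. Pfn1 also lost its call without the second E17.5 retina or the second P0.5 Cre-positive library. Within retina alone, no gene of the 10 passed between any successive stages, none had an unadjusted p under 0.05, and 0.0, 0.049 and 0.0% of all genes passed. Retina values of Cfl1, for example, differed by -1.38 (95% interval -4.34 to 1.57) from E17.5 to P0.5 and by -0.11 (-3.06 to 2.84) to P7.5. Each gene but Cfl1 had at least 1 retina group whose libraries differed by over 5 times or included a 0.

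The genes most like Actb were ranked by Pearson correlation of log2(FPKM + 1) over the 21 libraries with a value of Actb, among 1440 other genes, as a description. They were Kif1b, a kinesin motor (r = 0.780), Tubb5, a tubulin (0.725), Set (0.717), Chst2 (0.691) and Snhg11 (0.648). This order rests on the 3 retina libraries in which Actb is listed at 0, since over the other 18 libraries the same genes had r of -0.0963, 0.274, 0.421, -0.250 and -0.332. Of the members, Actg1 ranked 82nd (r = 0.459, and 0.378 without those 3 libraries). Without those libraries Tmsb4x (0.763), Tmsb10 (0.730), Pfn1 (0.612), Capzb (0.535) and Cfl1 (0.394) had higher coefficients than Actg1. Libraries of all stages and sources enter here, with their differences in depth.

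The wider actin machinery was read from a list of 93 other genes, of which 91 are in the files and 66 were tested in SC. At P0.5, 15 of them were higher and 7 lower in Cre-positive than in Cre-negative SC, or 22.7% and 10.6% of the list, beside 28.2% higher and 4.34% lower among all 5986 genes tested. The median difference was 0.66 log2 units in the list and 0.78 in all genes. None of the 66 passed at E17.5, P7.5 or Adult, where 0, 0 and 2 of them had an unadjusted p under 0.05. Of the 8 tested subunits of the Arp2/3 complex 3 were higher and none lower, and of the 7 tested myosin genes 4 were higher. Among the 6 tested severing and monomer-binding genes 1 was higher. The WAVE complex and other nucleators had 1 higher and 2 lower of 9, capping and pointed-end factors 3 higher and 1 lower of 7, and bundling and crosslinking proteins 3 higher and 2 lower of 14. None of the 3 Ena/VASP genes or 2 tropomyosins passed, and 1 of 3 membrane linkers and 1 of 7 GTPases and kinases were lower.

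Of the 5 largest rises with Cre at P0.5, 4 were in genes listed at 0 in both background libraries, so their size depends on the pseudocount. Arpc3, an Arp2/3 subunit, had 204 and 143 FPKM with Cre and 0 without (7.43 log2 units, SE 1.53, adjusted p = 0.00337 with limma). Arpc5l, another subunit, had 72.6 and 56.4 FPKM against 0 (6.02, SE 1.14, adjusted p = 0.00190). Arpc2, which sits in the same complex, was at 0 in all 4 of these libraries. Myl6, a myosin light chain, had 99.5 and 47.7 FPKM against 0 (6.13, SE 2.05, adjusted p = 0.0421), and Gsn, the severing protein gelsolin, 57.8 and 23.0 against 0 (5.23, SE 0.60, adjusted p = 5.63e-05). Actn4, an α-actinin that bundles filaments, had 134 and 63.7 FPKM against 1.02 and 0.641 (5.68, SE 1.36, adjusted p = 0.00825).

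Large falls were seen in 4 genes near 0 in both Cre-positive libraries. Cttn (cortactin) was at 0 with Cre and had 52.4 and 25.5 FPKM without (-5.23, SE 1.32, adjusted p = 0.0109 with limma). Tmod3 (a tropomodulin) had 0 and 0.0324 FPKM with Cre and 27.8 and 11.1 without (-4.20, SE 0.43, adjusted p = 2.63e-05). Cyfip2, of the WAVE complex, had 0 and 0.251 against 22.8 and 16.4 FPKM (-4.18, SE 0.93, adjusted p = 0.00507). Ezrin (Ezr), a membrane linker, had 0.0504 and 0 against 22.9 and 3.95 FPKM (-3.41, SE 0.58, adjusted p = 9.11e-04). In these libraries the 7 microglial markers were all at 0 with Cre, while their sum without Cre was 43.3 to 77.0 FPKM with 6 of 7 at 0. The 10 RGC markers summed to 245 to 513 FPKM with Cre and 330.1 to 940.2 without. Other marker sets went the other way. Astrocyte markers summed to 35.9 to 45.4 FPKM with Cre and 5.76 to 10.6 without, with 3 of 5 at 0 in both libraries of each group. Markers of retinal progenitors or cycling cells summed to 195.8 to 245.8 with Cre and 23.99 to 32.16 without, with 3 and 2 of 5 at 0 in both libraries. These sums thus rest on few genes. In the remaining sets the ranges overlapped or were at 0. The part of any cell type in these differences was not tested. Among these 9 genes the calls of Arpc3, Arpc5l and Gsn were kept whichever of the 4 libraries was left out. Tmod3 and Ezr passed the filter on low values only through the 2 P0.5 Cre-negative libraries, where they are high. Without either of those libraries they were not tested, so their calls could not be checked there. With a Cre-positive library left out, the differences were -4.22 and -4.18 for Tmod3 and -3.45 and -3.37 for Ezr. Myl6 lost its call without any 1 of the 4 libraries. Without the first Cre-positive library Actn4, Cttn and Cyfip2 also lost theirs, without the second Cttn and Cyfip2 did, without the first Cre-negative library Cttn did, and without the second Actn4 did.

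**Figure D4:**
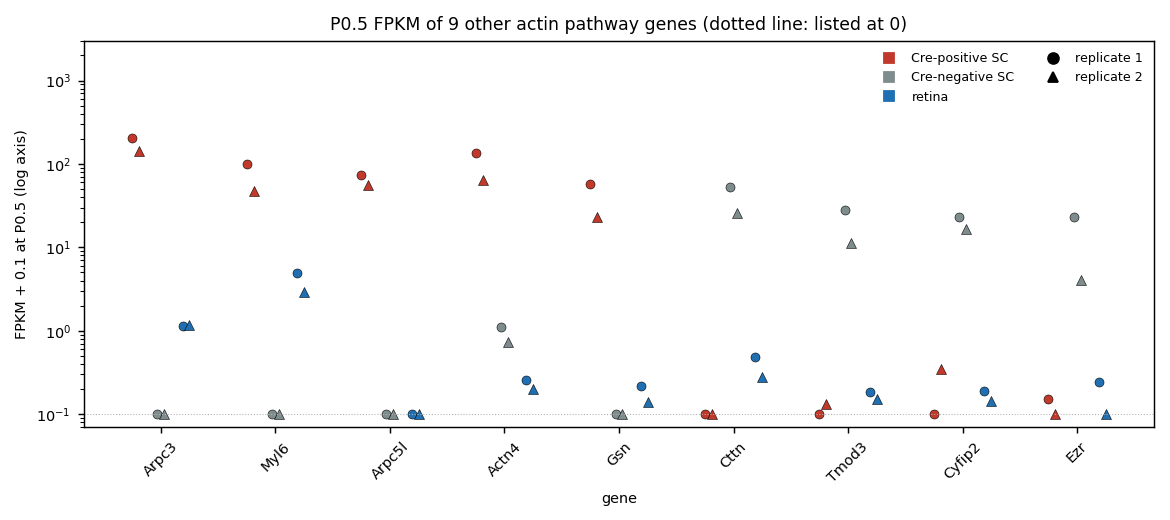
P0.5 libraries of SC with Cre, SC without Cre and retina are plotted for the 5 pathway genes with the largest rise with Cre and 4 with a large fall, on a log axis of FPKM plus 0.1. The first 5 lie at 23.0 FPKM or more in both Cre-positive libraries and at 1.02 or less in both Cre-negative ones, and the last 4 lie at 0.251 or less in both Cre-positive libraries and at 3.95 or more in both Cre-negative ones.

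Between stages the list was called at about the rate of all genes. In Cre-positive SC, 17 of the 66 rose (25.8%, beside 25.1% of all genes) and 1 fell from E17.5 to P0.5, with a median of 1.07 in the list and 0.69 in all genes. To P7.5 none rose and 18 fell (27.3%, beside 29.3% of all genes), with medians of -1.78 and -1.20. Against retina at P0.5, 24 of the 62 tested were higher (38.7%, beside 32.7% of all genes) and 3 lower (4.84%, beside 2.01%), with medians of 1.88 and 1.10.

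In the run-off assay initiation is blocked while elongation goes on, so that an mRNA under translation loses its ribosomes before the immunoprecipitation. There was 1 library a condition, so no test was possible, and the intervals cover counting error only, as do the limits for a count of 0. In adult Cre-positive SC the library held 3262914 reads on genes without and 349395 with run-off, or 10.7% as many, and in retina 4686284 and 315009, or 6.72% as many. Library input followed the amount of cDNA, and reads were compared as they stand. A count of 0 allows up to 3 reads, or 0.919 and 8.59 CPM (counts scaled to the library total) in SC without and with run-off, and 0.640 and 9.52 CPM in retina.

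Actb kept the most reads. In SC it had 25807 reads without and 5761 with run-off, a ratio of 0.223 (exact 95% interval 0.217 to 0.230), and in retina 44797 and 6034, a ratio of 0.135 (0.131 to 0.138). Both ratios were above the ratio of the library totals. As a share of its library, Actb therefore rose with run-off, from 7909 to 16490 CPM in SC (2.09 times) and from 9559 to 19160 CPM in retina (2.004 times). Its direction thus depends on whether libraries are compared as deposited or by share.

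Most other members kept at most 1 read in the SC run-off library. The median ratio was 0.0 over 4731 genes with at least 3 reads in the 2 SC libraries together. That set reaches down to genes with few reads, which a library with 10.7% as many reads can miss. It therefore does not show how common such a loss was among genes with as many reads as these members. Pfn1 had 143 reads without and 0 with run-off, with an upper limit of 0.0261 for the ratio, and Pfn2 had 151 and 0, with an upper limit of 0.0247. Actg1 went from 77 reads to 1 (ratio 0.0130, exact 95% interval 3.25e-04 to 0.0745), and Arpc2 from 52 to 1 (ratio 0.0192, interval 4.78e-04 to 0.112). Cfl1 was the only regulator with more than 1 read left, from 170 to 54 (0.318, interval 0.229 to 0.434), and its share rose from 52.1 to 154.6 CPM. Tmsb10 had 6 reads and then 0, Capzb 1 and 0, and Dstn and Tmsb4x had none in either library, which allows up to 0.919 CPM without run-off. All 8 genes with a read had a ratio under 0.5, beside 82.5% of all genes with a read. Of these, Capzb has too few reads to compare, and the upper limit of Tmsb10 was 0.849, above that threshold.

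In retina 9 of the 10 genes had a ratio under 0.5, 1 of them (Tmsb10) from too few reads to compare, beside 89.0% of all genes with a read. Pfn2 went from 352 to 95 reads (0.270, exact 95% interval 0.213 to 0.339), Pfn1 from 93 to 29 (0.312, interval 0.198 to 0.478), Capzb from 129 to 27 (0.209, interval 0.133 to 0.319) and Cfl1 from 166 to 12 (0.0723, interval 0.0366 to 0.130). Arpc2 fell from 90 to 8 reads, Dstn from 71 to 2 (ratio 0.0282, interval 0.00335 to 0.106), Actg1 from 22 to 0 and Tmsb10 from 2 to 0. Tmsb4x alone had more reads with run-off, 39 after 21 (ratio 1.86, interval 1.07 to 3.32). Scaled to library totals only 3 genes, Actg1, Dstn and Tmsb10, kept a ratio under 0.5 in retina, beside 66.4% of all genes with a read. The upper 95% limits of these scaled ratios were 2.72, 1.57 and 79.2, so counting error alone could hide a rise. In SC 6 of the 8 kept such a ratio, all but Actb and Cfl1, beside 67.8%. Their upper limits were 0.244 for Pfn1, 0.231 for Pfn2 and 0.696 for Actg1. For Arpc2, Tmsb10 and Capzb the limits passed 1, at 1.046, 7.93 and 364. In CPM per kilobase, the level of Actb was 4119 in SC and 4979 in retina without run-off, compared with 12.1 and 2.41 for Actg1. In that SC library Pfn1, Pfn2 and Arpc2 had 50.9, 19.8 and 11.1, while the adult Cre-positive SC libraries with FPKM had at most 1.88, 0.394 and 0. Cfl1 had 22.1 there, near its adult FPKM, and Dstn and Tmsb4x had no read. Adult values near 0 in FPKM therefore do not show that an mRNA was absent.

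Profilins thus differed between the sources in these single libraries: both lost every read in SC, and in retina 29 and 95 reads remained. The median ratio over all genes with at least 3 reads was 0.0 in SC (4731 genes) and 0.0 in retina (8253 genes). Losing every read was therefore common over these genes in both sources. As they include genes with as few as 3 reads, this does not show how common it was at the read numbers of the profilins. Whether the profilins differ between the sources beyond library-to-library variation was not tested, as there is no replicate.

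**Figure D5:**
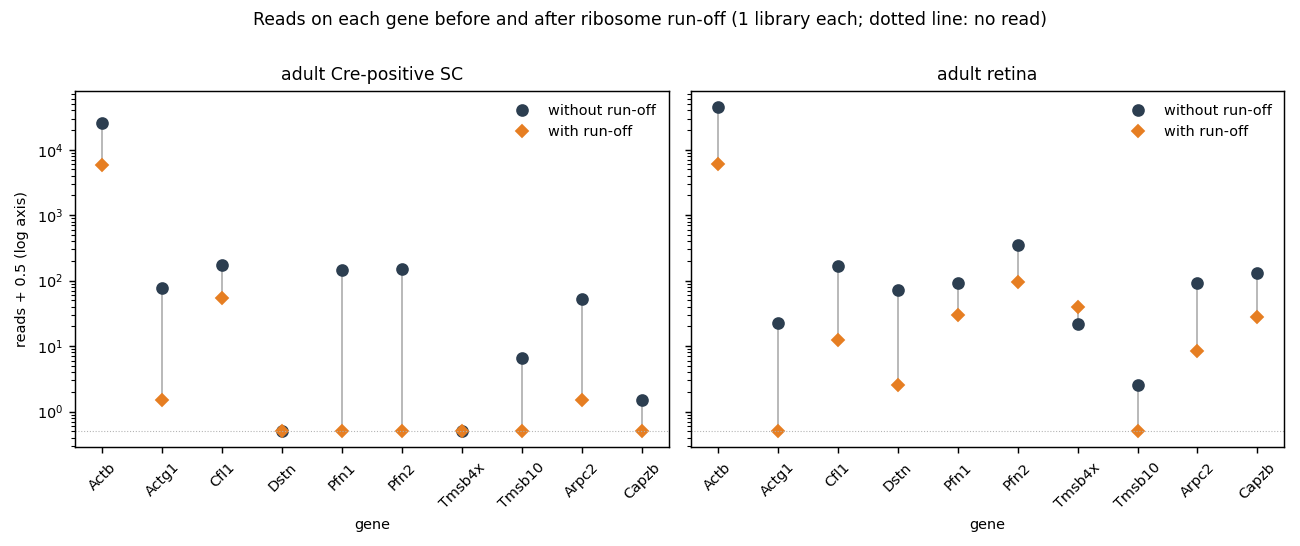
Reads on each gene (log axis, plus 0.5) in the adult Cre-positive SC and retina libraries without (circles) and with run-off (diamonds), 1 library each, with the dotted line for no read. Actb keeps 5761 and 6034 reads, both profilins drop from 143 and 151 reads to none in SC, and Tmsb4x in retina is the only gene above its starting value.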

How the data were processed

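Polysome-bound mRNA was immunoprecipitated, amplified by PCR and sequenced by the authors, who mapped reads to mm10 with TopHat2 2.0.12. The deposited FPKM were estimated by the authors with Cufflinks 2.2.1, 1 value per gene and library. The run-off files hold a deposited count per gene, made by the authors with HTSeq 0.6.1p1 and not normalized. All 28 libraries were used, grouped by title, and 0 columns were unmatched.

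The study's count-based method could not be applied to FPKM, so limma 3.58.1 with statmod 1.5.0 (R 4.3.3) was run with a trend and robust moderation on log2(FPKM + 1), for genes at 1 FPKM or more in at least 2 libraries of a fit. The fits were SC (16 libraries, 5986 genes), Cre-positive SC with retina (16 libraries, 6324 genes) and retina (8 libraries, 4083 genes), two-sided, with Benjamini-Hochberg adjustment over all genes and a threshold of 0.05. The method was tested on simulated data. Entries marked as too abundant to estimate were left out. A gene was called lower after run-off at a read ratio under 0.5, with exact 95% intervals. The first and second library of a group are its replicates 1 and 2. Alternatives were a pseudocount of 0.1, no filter, median-ratio scaling, ordinary moderation, single-stage fits, replicate blocks and leaving out libraries.

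The 10 genes and the lists were chosen with earlier results of these data known. Named pathway genes are at most 5 a direction passing a single-stage comparison of Cre, of which 1 is not reported here. Gene positions, lengths and sequences came from GENCODE vM21 of GRCm38. Depth was estimated from 2842 single-transcript genes, taking the 5th percentile of FPKM times length as 1 fragment. Tables and figures were made in Python 3.11.15 with biopython 1.88, matplotlib 3.10.9, pandas 2.3.3, numpy 2.4.6 and scipy 1.17.1.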

Additional observations from a re-analysis of the deposited data

Results flagged for a closer look

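For Pfn1 the change from E17.5 to P0.5 differed between Cre-positive SC and retina by 6.42 log2 units, by the interaction term of limma (adjusted p = 0.0131, range 0.00744 to 0.146 over the alternatives). Pfn1 rose from 0 and 1.70 to 92.5 and 60.0 FPKM in Cre-positive SC and went from 6.61 and 22.4 to 5.65 and 6.68 FPKM in retina. For Capzb the same difference was 7.55 (adjusted p = 0.00801, range 0.00504 to 0.0994), with a rise from 0.177 and 0.0528 to 168 and 74.5 FPKM in Cre-positive SC and 1.42 and 5.42 against 1.82 and 0.619 FPKM in retina. From P0.5 to P7.5 the change of Capzb differed by -7.20 (adjusted p = 0.0112, range 0.00509 to 0.133). In Cre-negative SC, which holds no tagged ribosomes, Capzb also went from 3.96 and 13.8 FPKM at E17.5 to 101 and 27.5 at P0.5 and 0.295 and 0 at P7.5, and the interaction with Cre did not pass in either step. The part of the background in these differences from retina was not tested. With 2 libraries a group, no group was large enough to look for a single outlying sample.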

How the results depend on the processing

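Of the 24 counts of members called, 12 were equal under every alternative. With the pseudocount of 0.1 the count was 1 for Cre-positive SC against retina at P0.5 (2 in the report), 1 for the E17.5 to P0.5 interaction with retina (2) and 2 for the P0.5 to P7.5 interaction with retina (1). Without the filter it was 1 against retina at P0.5 and 4 for the P0.5 to P7.5 change in Cre-positive SC (5, with Tmsb10 lost). Without trend and robust moderation it was 1 for the E17.5 to P0.5 interaction with Cre (0) and 2 for the P0.5 to P7.5 interaction with retina. With only the 4 libraries of the stage it was 2 for Cre at P0.5 (0) and 8 against retina at P0.5. Scaled to library totals or by median ratio, 3 and 5 genes were called lower after run-off in retina (9), and 6 under both in SC (8).

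The labels do not tie replicate numbers to litters, so the fits in the report have no block. Deviations of same-numbered Cre-positive and Cre-negative SC libraries correlated at 0.565, 0.427 and 0.456 at E17.5, P0.5 and P7.5, and at 0.0815 in the adult. What same-numbered libraries share was not tested. For Cre-positive SC and retina the range was -0.0982 (adult) to 0.517. The replicate block gave 1 call for Cre at P0.5 (Pfn2), 1 for the E17.5 to P0.5 interaction with Cre (Capzb) and 1 against retina at P0.5 (Capzb, with Pfn1 lost), and left the other 19 of 22 counts the same.

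Leaving out single libraries gave counts from 0 to 1 for Cre at E17.5, for Cre over all stages, for the E17.5 to P0.5 interaction with Cre and for retina at P0.5, from 0 to 2 for retina at E17.5, and from 0 to 3 for the E17.5 to P0.5 and P0.5 to P7.5 changes in Cre-positive SC and both of their interactions with retina. No direction was reversed among the 12 calls of members. Over the other settings these calls were kept 62 times and lost 5 times, and with a library left out 33 and 27 times, and none of the 12 was kept under every left-out library. The number of all genes called moved in the same way. For Cre at P0.5 it was 1946, 448 to 1244 with a library left out and 2730 with only the 4 libraries. It was 1611 (225 to 1680) from E17.5 to P0.5 and 1783 (273 to 1360) to P7.5 in Cre-positive SC, and 2195 (567 to 1479) against retina at P0.5, with 3371 when only the 4 libraries entered. The shares of all genes given beside the counts carry this range. Depth limits genes under a few FPKM, where 3 fragments are worth up to 15.8 FPKM in the shallowest library.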
